A study of Homo sapiens with 20 samples.

Results

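UHO-1 is an established cell line of classical Hodgkin lymphoma, a tumour of germinal centre B cells in which much of B cell gene expression is extinguished. The comparison is that of UHO-1 cells carrying FOXO1(3A)ER and given 4-hydroxytamoxifen (4-OHT) for 24 h with the same cells given ethanol vehicle for 24 h. It rests on 4 of the 20 arrays of the series, 2 with 4-OHT and 2 with vehicle, chosen by the line named in the array titles. The other 16 arrays hold the same pair of conditions in SUP-HD1, L1236, L428 and KM-H2, every line with the same fusion. In FOXO1(3A)ER a constitutively active human FOXO1 mutant is fused to the domain with which the oestrogen receptor binds its ligand, and both arms of UHO-1 carry it stably. Neither its promoter and level nor the number of clones was given in the sources used here. A dose of 200 µM 4-OHT stands in the labels, in a protocol written for L428 and KM-H2 cells with a KLF4 fusion, so it may not hold for UHO-1. That protocol has the experiment done 2 times, but whether the arrays of an arm came from separate cultures is not stated. The p-values and standard errors below rest on the spread between arrays of the same arm and line, pooled over all 20 arrays. They do not measure the spread of the UHO-1 arrays alone, and the pooled spread may be technical. No UHO-1 cells without the fusion were measured, so effects of 4-OHT itself and of FOXO1 cannot be told apart.

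FOXO1 is a transcription factor that AKT phosphorylates and expels from the nucleus when growth factor or antigen receptor signals activate PI3K. The 3A mutant lacks the AKT sites, and the fused receptor domain holds it inactive until 4-OHT binds, so that the switch acts on a protein already made. In B cells FOXO1 is known for its roles in the germinal centre and for genes that slow the cell cycle, limit PI3K signalling and guide migration.

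The values are the authors' log2 RMA signals of Human Gene 1.0 ST arrays. Medians of the UHO-1 arrays were 6.31 and 6.31 log2 units with 4-OHT, against 6.36 and 6.38 with vehicle, and genes differed between the arrays of an arm with an SD of 0.144 in each arm. Of 32 tested Hodgkin cell markers, 29 had a mean signal of at least 7 in UHO-1, among them TNFRSF8, the gene of CD30. Of 23 tested B cell identity genes, 10 reached 7, with PAX5, the B cell commitment factor, at 9.555. Only 2 of 17 tested T cell and NK cell markers and 2 of 13 myeloid markers did so. Here and below a sum of signals takes each value off the log scale. It covers every list member with a probe set, tested or not. These are 21 T cell and NK cell, 18 myeloid and 20 stromal genes. The summed signal of the T cell and NK cell markers was 2464 and 2490 with 4-OHT, against 2501 and 2558 with vehicle, and that of the myeloid markers 1001 and 1056 against 1150 and 1233. FOXO1 transcripts (probe set 7971177) read 10.05 and 10.05 with 4-OHT, against 10.36 and 10.41 with vehicle. This fall of the FOXO1 signal (-0.33 ± 0.08, SE, n = 2 in each arm) passed the test with an adjusted p of 0.00477 (limma), and was lost without vehicle replicate 2 (0.0519). ESR1, from which the fused domain comes, changed by -0.35 ± 0.13 (adjusted p = 0.0455), and its other probe set read a difference of -0.065. The ESR1 call was lost in 8 of 14 alternatives. Whether either probe set reads the fusion transcript was not determined, so these genes do not check the treatment.

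With 4-OHT, UHO-1 cells showed a small set of very strong rises and few falls of that size. PRL, the gene of the hormone prolactin, rose 34-fold, P2RY14, a receptor for UDP-sugars, 21.6-fold and PLAAT4, a phospholipid-modifying enzyme, 8.73-fold. Of 15850 genes tested, 2118 (13.4%) were higher and 1760 (11.1%) lower with 4-OHT at an adjusted p below 0.05 (limma, Benjamini-Hochberg adjustment over all tested genes). The arms did not overlap in 11190 genes (70.6%). Changes were mostly small: 2949 of the calls were below 0.5 log2 units, 143 genes (0.902%) rose by at least 1 log2 unit and 3 (0.0189%) fell by as much. The calls leaned to rises, 2118 against 1760, but centring each array on its median turned the lean round, with 1857 higher and 2336 lower. Leaving out 1 array gave 1157 to 1514 higher and 680 to 814 lower, the lowest without vehicle replicate 2 for rises and without 4-OHT replicate 2 for falls. Genes up by at least 1 log2 unit numbered 143 to 160 in the same fits, of which 130 to 136 were among the 143, and genes down by as much 1 to 7. The 3 falls are SLC2A5 and the histone genes H4C14 and H4C15, which share 1 set of values.

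**Figure D1:**
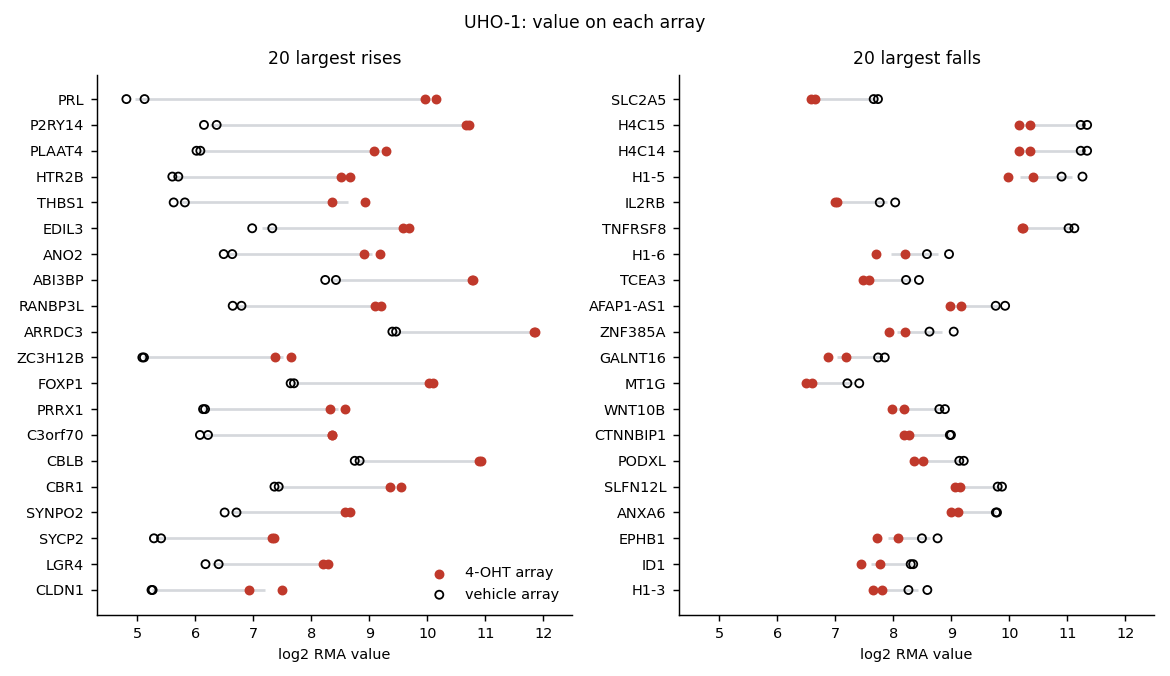
Log2 RMA values on each UHO-1 array (horizontal axis) of the 20 genes with the largest rise (left) and the 20 with the largest fall (right), filled points for 4-OHT and open points for vehicle, with a line between the arm means. PRL reads 10.15 and 9.96 with 4-OHT, against 4.81 and 5.12 with vehicle. The arms of these genes do not overlap, as the rule that chose them requires.

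The size and direction of small changes in UHO-1 depended on how bright a gene was. In genes with a mean signal between 5 and 6 log2 units the median change was -0.159, and between 6 and 7 it was -0.18, whereas it was -0.0038 between 7 and 8 and 0.060 between 8 and 9. Each pairing of a 4-OHT array with a vehicle array showed this, with medians from -0.154 to -0.195 for signals between 6 and 7. Of the 1760 lower calls, 773 had a mean signal below 7 and 987 had 7 or more. Of the 2118 higher calls, 357 and 1761 did. After cyclic loess of the UHO-1 arrays, a scaling that removes shifts that depend on signal, 1948 genes (12.3%) were higher and 1314 (8.29%) lower. Of the 773 lower calls on dim genes 125 were still lower then, and of the 987 on brighter genes 890. Falls on genes below 7 are therefore given below with their standing after loess, and lists that lean on dim genes beside the median change of genes of like signal.

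**Figure D2:**
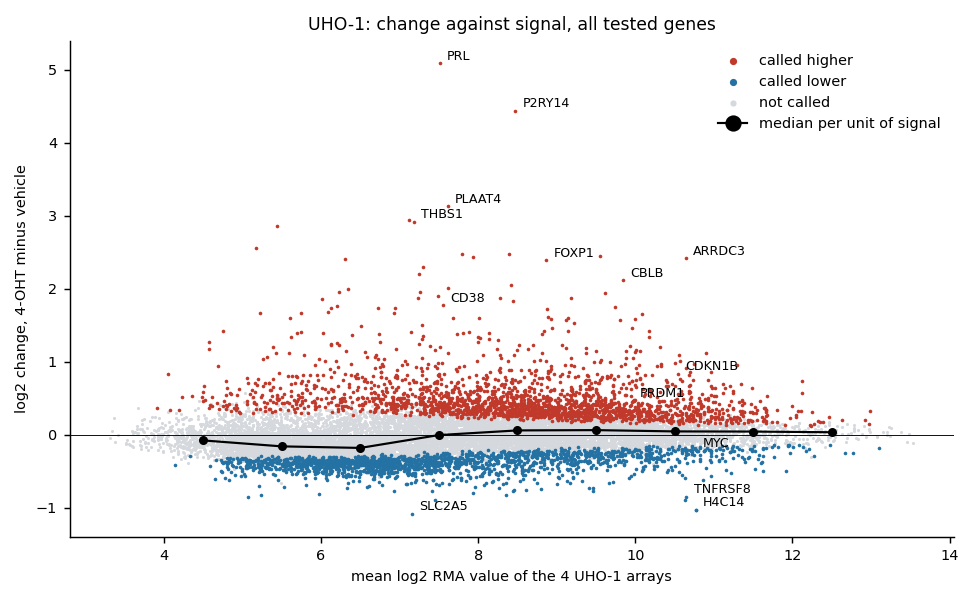
Log2 change, 4-OHT minus vehicle (vertical axis), against the mean log2 RMA value of the 4 UHO-1 arrays (horizontal axis), 1 point per tested gene, red for called higher, blue for called lower and grey for not called. The black line joins the median change in each 1-unit range of signal and dips to -0.18 between 6 and 7.

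**Figure D3:**
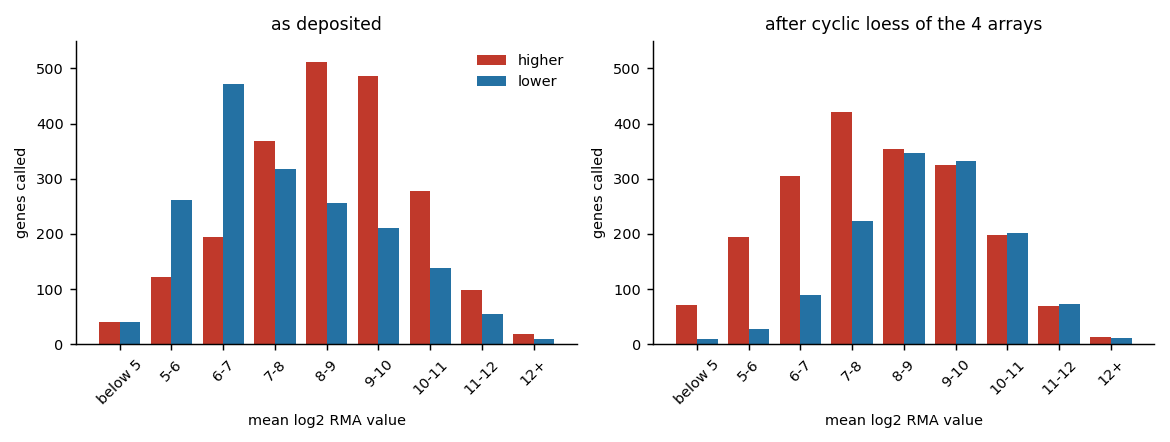
Number of genes called higher (red) and lower (blue) in UHO-1 with 4-OHT (vertical axis) in each 1-unit range of mean log2 RMA value (horizontal axis), for the deposited values (left) and after cyclic loess of the 4 arrays (right). Between 6 and 7 the deposited values gave 194 higher and 471 lower, and 305 higher and 89 lower after loess.

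The largest rises were of PRL, P2RY14, PLAAT4, HTR2B and THBS1. PRL (probe set 8124185) read 10.15 and 9.96 with 4-OHT, against 4.81 and 5.12 with vehicle (all values here and below are log2 RMA units), a change of 5.09 ± 0.13 (SE, adjusted p = 2.64e-17). The vehicle values lie near the floor of 5 used for testing, and no detection call was used, so the fold is given as measured. P2RY14 read 10.67 and 10.71 with 4-OHT, against 6.37 and 6.15 with vehicle. Both genes thus lay near or below the array median of about 6.3 with vehicle and far above it with 4-OHT. PLAAT4 read 9.08 and 9.28 with 4-OHT, against 6.02 and 6.085 with vehicle. HTR2B, a serotonin receptor, read 8.67 and 8.51 with 4-OHT, against 5.705 and 5.60 with vehicle, and rose 7.65-fold. THBS1, the matrix protein thrombospondin-1, rose 7.55-fold, with a wider spread between the 4-OHT arrays: 8.92 and 8.355 with 4-OHT, against 5.82 and 5.625 with vehicle. Next came EDIL3, an integrin-binding matrix protein (2.48 ± 0.11 log2 units), ANO2, a calcium-activated chloride channel (2.48 ± 0.11), ABI3BP, an extracellular matrix protein (2.44 ± 0.12), and RANBP3L, a relative of the nuclear export factor RANBP3 (2.43 ± 0.13). ABI3BP was bright in both arms and read 10.78 and 10.77 with 4-OHT, against 8.42 and 8.24 with vehicle.

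Regulators formed another part of the largest rises. ARRDC3, an arrestin-like adaptor that brings ubiquitin ligases to membrane receptors, read 11.86 and 11.83 with 4-OHT, against 9.46 and 9.40 with vehicle, 5.34-fold. FOXP1, a forkhead factor of B cells, read 10.09 and 10.03 with 4-OHT, against 7.70 and 7.64 with vehicle, 5.24-fold. CBLB, which tags antigen receptor signalling proteins with ubiquitin, read 10.89 and 10.93 with 4-OHT, against 8.83 and 8.75 with vehicle, 4.34-fold. These 3 genes were already well expressed with vehicle, unlike PRL. PRRX1, a homeobox factor of mesenchyme, rose by 2.30 ± 0.13 log2 units, ZC3H12B, of the regnase family of RNA-degrading proteins, by 2.41 ± 0.11, and LGR4, a receptor for R-spondins, by 1.955 ± 0.12. C3orf70 (2.21 ± 0.12), CBR1, a carbonyl reductase (2.05 ± 0.13), SYNPO2, an actin-binding protein (2.01 ± 0.13), SYCP2, of the meiotic synaptonemal complex (1.997 ± 0.12), and CLDN1, a tight junction protein (1.95 ± 0.14), completed the 20. The highest adjusted p among the 20 was 7.55e-10, and each of the 20 calls held under every alternative run for it. RP1 (2.855 ± 0.12, means 6.865 with 4-OHT and 4.01 with vehicle) and TDRD1 (2.55 ± 0.093, means 6.45 with 4-OHT and 3.90 with vehicle) rose more than some of the 20 but did not reach 7 in either arm, and were looked up after their values were seen.

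Falls were smaller, and the largest ones were of 1 sugar transporter, histones and surface receptors. SLC2A5, a fructose transporter, read 6.58 and 6.64 with 4-OHT, against 7.66 and 7.73 with vehicle, a change of -1.085 ± 0.12 (adjusted p = 1.09e-06). IL2RB, the beta chain of the IL-2 and IL-15 receptors, read 7.02 and 7.0 with 4-OHT, against 8.03 and 7.765 with vehicle. TNFRSF8, the Hodgkin cell marker CD30, read 10.21 and 10.24 with 4-OHT, against 11.12 and 11.02 with vehicle, 1.8-fold lower with 4-OHT. The rule for the largest falls required arms that do not overlap, which held for 70.6% of all tested genes. H4C14 and H4C15 read 10.36 and 10.16 with 4-OHT, against 11.34 and 11.23 with vehicle, and cannot be told apart. ID1, an inhibitor of basic helix-loop-helix factors, fell by 0.71 log2 units and CTNNBIP1, an inhibitor of beta-catenin, by 0.76. WNT10B, a secreted WNT ligand, fell by 0.76, PODXL, a sialomucin, by 0.74, ANXA6, a calcium-dependent membrane-binding protein, by 0.72, and EPHB1, a receptor tyrosine kinase, by 0.72. TCEA3 (-0.80), ZNF385A (-0.77), GALNT16 (-0.77), SLFN12L (-0.73) and the long noncoding RNA AFAP1-AS1 (-0.78) also fell. Whether the last probe set reads AFAP1 as well was not determined. Of the 20 named falls 19 held under every alternative, and H1-6 was lost without 4-OHT replicate 2 (adjusted p = 0.0537). Each of the 20 was still lower after loess.

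Many known FOXO targets rose in UHO-1. Of 45 tested genes of the FOXO-induced list, 22 were higher and 2 lower, against 13.4% and 11.1% of all tested genes. The median change was 0.27 log2 units, beside -0.035 for all tested genes and 0.046 for genes of like signal, and 18 to 20 were higher without 1 array. DEPP1, a FOXO-induced protein of oxidative stress responses, read 9.91 and 10.07 with 4-OHT, against 8.41 and 8.51 with vehicle, 2.89-fold. CDKN1B, the cell cycle inhibitor p27, read 10.98 and 10.92 with 4-OHT, against 10.13 and 10.11 with vehicle. IGF1R, the receptor of insulin-like growth factor 1, read 11.03 and 10.95 with 4-OHT, against 10.14 and 9.89 with vehicle. In each of them the 4-OHT arrays lay above both vehicle arrays, and the arms of 70.6% of all tested genes did not overlap. KLF6 rose by 0.97, TP53INP1, a p53-induced autophagy and death regulator, by 0.995, FBXO32, a ubiquitin ligase subunit and classical FOXO target, by 0.74, and SESN1, a stress-induced inhibitor of mTORC1 signalling, by 0.72. DDIT4 (-0.58) and BBC3 (-0.68), a stress-induced inhibitor of mTORC1 and a BH3-only death protein, fell. KLF2 (0.13), S1PR1 (0.12), IL7R (0.27) and TXNIP (-0.16), FOXO targets of lymphocytes and of glucose metabolism, did not pass the test.

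The forkhead heptamer TGTTTAC, which reads GTAAACA on the opposite strand, was looked for on both strands of RefSeq promoter windows, 300 bases from 250 before to 50 after each annotated start (GRCh38.p14). Among windows of genes called higher in UHO-1, 92 of 2596 (3.54%) held it, among those called lower 35 of 1832 (1.91%), among those not called 2.50%, among those of all tested genes 2.6% and among all 35116 windows 3.42%. Counted by gene, 8 of the 114 genes with a window among the 143 up by at least 1 log2 unit held it (7.02%), against 429 of 12377 tested genes (3.47%). Counted by window, 8 of 176 windows of these rises held it (4.55%), against 2.6% for all tested genes. The following windows belong to members of the rises and show where the letters stand. They are 5′ to 3′ on the gene's strand in lower case, with the match in capitals. Matching windows of C10orf90, STX7, WBP1L and TMEM140, also among the 143, are not shown. BCL2L11, which rose by 0.70, is not among the 143. PRL is shown because it rose most and its window holds no match.
ARRDC3, chr5:91380048-91380347, minus strand: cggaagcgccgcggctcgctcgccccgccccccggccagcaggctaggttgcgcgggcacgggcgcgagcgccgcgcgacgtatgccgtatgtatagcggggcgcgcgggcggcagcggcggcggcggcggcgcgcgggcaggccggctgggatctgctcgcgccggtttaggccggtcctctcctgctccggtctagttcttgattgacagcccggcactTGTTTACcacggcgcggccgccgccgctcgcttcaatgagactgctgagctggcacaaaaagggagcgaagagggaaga
FOXP1, chr3:71245028-71245327, minus strand: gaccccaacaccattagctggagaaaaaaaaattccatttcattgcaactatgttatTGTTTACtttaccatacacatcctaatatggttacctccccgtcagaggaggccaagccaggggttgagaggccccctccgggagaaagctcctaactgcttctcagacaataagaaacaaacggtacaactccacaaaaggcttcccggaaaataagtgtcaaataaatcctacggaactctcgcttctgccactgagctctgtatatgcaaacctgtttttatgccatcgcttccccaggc
DEPP1, chr10:44978760-44979059, minus strand: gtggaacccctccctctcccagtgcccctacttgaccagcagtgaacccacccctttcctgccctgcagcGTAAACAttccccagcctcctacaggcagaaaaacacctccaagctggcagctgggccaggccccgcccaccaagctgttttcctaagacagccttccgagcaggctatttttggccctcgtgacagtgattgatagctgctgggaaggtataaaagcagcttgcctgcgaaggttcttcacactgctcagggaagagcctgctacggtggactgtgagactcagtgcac
PIK3IP1, chr22:31292439-31292738, minus strand: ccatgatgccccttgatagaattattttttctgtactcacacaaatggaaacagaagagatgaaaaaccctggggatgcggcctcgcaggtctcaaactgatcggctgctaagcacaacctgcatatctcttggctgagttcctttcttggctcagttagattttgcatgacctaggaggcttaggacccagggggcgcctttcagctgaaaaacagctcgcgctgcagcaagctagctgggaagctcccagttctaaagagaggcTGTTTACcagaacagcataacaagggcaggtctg
BCL2L11, chr2:111120664-111120963, plus strand: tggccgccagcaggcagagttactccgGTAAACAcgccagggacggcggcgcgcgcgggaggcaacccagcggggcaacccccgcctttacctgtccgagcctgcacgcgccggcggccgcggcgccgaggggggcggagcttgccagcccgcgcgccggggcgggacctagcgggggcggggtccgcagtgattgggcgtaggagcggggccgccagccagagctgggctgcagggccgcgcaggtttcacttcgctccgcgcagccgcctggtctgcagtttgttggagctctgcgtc
PRL, chr6:22296987-22297286, minus strand: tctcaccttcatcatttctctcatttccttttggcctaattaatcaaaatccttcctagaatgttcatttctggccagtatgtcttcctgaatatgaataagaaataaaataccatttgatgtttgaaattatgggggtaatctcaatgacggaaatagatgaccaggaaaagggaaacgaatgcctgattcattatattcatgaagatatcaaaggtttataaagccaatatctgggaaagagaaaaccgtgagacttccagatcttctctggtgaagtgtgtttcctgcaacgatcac
The window of ARRDC3 is 1 of 2 for that gene, that of FOXP1 1 of 6 and that of PIK3IP1 1 of 2. The match begins 29 bases before the start in ARRDC3, 193 before in FOXP1, 180 before in DEPP1 and 223 before in BCL2L11, and lies after the start in PIK3IP1. A match is a description of the letters, and binding was not measured.

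Of 30 tested members of the insulin and PI3K list 10 were higher and 1 lower (median 0.12), 19 were not called, 3 were lower after loess, and 9 were higher without 1 array. PIK3IP1, an inhibitor of PI3K, read 7.43 and 7.35 with 4-OHT, against 6.07 and 6.17 with vehicle, 2.41-fold. IRS1, the docking protein of the insulin receptor, read 7.16 and 7.265 with 4-OHT, against 6.15 and 6.43 with vehicle. RICTOR, the subunit that defines the AKT-activating complex mTORC2, read 10.13 and 10.08 with 4-OHT, against 9.315 and 9.26 with vehicle. So both an inhibitor of the pathway and genes that carry its signal rose. GAB2 (0.80) and GAB1 (0.89), scaffolds for PI3K, rose as well, and PIK3R1, a regulatory subunit of PI3K, was the 1 member that fell (-0.21). INSR (0.16), IRS2 (0.32) and AKT1 (0.072) did not pass. Among all tested genes 13.4% were higher and 11.1% lower. Of 13 tested ubiquitin ligases and adaptors of immune signalling, 5 were higher and 0 lower (4 to 5 higher without 1 array). Beside CBLB and FBXO32 they were PELI1 (0.71), ITCH (0.34) and TRAF6 (0.32), ligases of receptor signalling. TRAF6 was lost without vehicle replicate 2, without 4-OHT replicate 2 and after quantile normalisation.

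Forkhead and KLF factors moved unevenly, beside 13.4% higher and 11.1% lower among all tested genes. Of 19 tested forkhead genes 5 were higher and 6 lower, and 3 and 3 after loess. Rises numbered 2 to 4 without 1 array, the fewest without vehicle replicate 2, and falls 1 to 4 without 1 array, the fewest without vehicle replicate 2. FOXP2, best known from the brain, read 6.91 and 6.98 with 4-OHT, against 5.11 and 5.06 with vehicle, 3.63-fold. FOXM1, which drives mitotic genes, fell by 0.24, and FOXO4, another FOXO factor, rose by 0.30. FOXO3 stood -0.36 log2 units from vehicle, which did not pass (adjusted p = 0.0698). Of 14 KLF genes 6 were higher and 1 lower (median 0.18, 5 higher without 1 array). KLF6 read 10.87 and 10.76 with 4-OHT, against 9.98 and 9.70 with vehicle, and KLF7 (0.93), KLF3 (0.82), KLF12 (0.72) and KLF4 (0.56) rose with it. KLF4 thus rose at a low signal, reading 7.02 and 7.14 with 4-OHT, against 6.475 and 6.55 with vehicle.

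Plasma cell and B cell genes showed no common direction in UHO-1. CD38, a surface enzyme of plasma cells and germinal centre B cells, rose 3.42-fold and read 8.35 and 8.52 with 4-OHT, against 6.47 and 6.855 with vehicle (adjusted p = 1.45e-08). PRDM1, the factor that imposes plasma cell fate, was bright in both arms and read 10.29 and 10.11 with 4-OHT, against 9.76 and 9.70 with vehicle, a change of 0.47 ± 0.12 (adjusted p = 0.00696). Its call was lost without vehicle replicate 2 and without 4-OHT replicate 1 (adjusted p up to 0.0859). PIM2, a survival kinase, rose by 0.67 and XBP1, the secretory factor of plasma cells, by 0.31, while FKBP11, a folding enzyme of the secretory pathway, fell by 0.41. IRF4, which PRDM1 works beside, read 12.29 and 12.18 with 4-OHT, against 12.17 and 12.24 with vehicle and did not pass (adjusted p = 0.841). In all 6 of 16 plasma cell genes were higher and 3 lower, beside 13.4% and 11.1% of all tested genes. There were 3 to 5 without 1 array, the fewest without vehicle replicate 2, for rises, and 0 to 1 without 1 array, the fewest without 4-OHT replicate 1, for falls.

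Of 23 B cell identity genes 4 were higher and 3 lower, close to the 13.4% and 11.1% of all tested genes. The list median was -0.11, beside -0.077 at like signal. Rises numbered 1 to 4 without 1 array, the fewest without vehicle replicate 2, and falls 1 to 2 without 1 array, the fewest without vehicle replicate 1. BLK, a kinase of the B cell receptor, rose by 0.52 ± 0.094, and BACH2, which opposes plasma cell fate, by 0.62 ± 0.19 at signals of 6.58 and 6.34 with 4-OHT, against 6.03 and 5.66 with vehicle. PAX5 fell by 0.33 and FCRLA, an Fc receptor-like protein of germinal centre B cells, by 0.73, at a mean signal of 6.335 and still lower after loess. The call of BACH2 was lost without vehicle replicate 2 or 4-OHT replicate 1, and that of PAX5 without any array but 4-OHT replicate 1. BCL6, the factor that maintains the germinal centre state, rose 1.75-fold and read 10.26 and 10.36 with 4-OHT, against 9.52 and 9.49 with vehicle. GCSAM, a germinal centre signalling protein, rose by 0.67, and EZH2, the histone methyltransferase of germinal centre cells, fell by 0.22. Together 4 of 13 germinal centre genes were higher and 4 lower, with rises at 2 to 3 without 1 array, the fewest without vehicle replicate 2, and falls at 1 to 2 without 1 array, the fewest without vehicle replicate 1. Among 15 MHC class II genes CTSS rose and HLA-DPB1, HLA-DOA and HLA-DMB fell, by 0.35, 0.41 and 0.38. Falls in this list numbered 1 to 3 without 1 array, the fewest without vehicle replicate 2. Of 10 MHC class I pathway genes NLRC5, which activates the class, rose by 0.37, and PSMB9 and ERAP2, which make and trim peptides, fell. Each of these 3 calls was lost without at least 1 array.

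**Figure D4:**
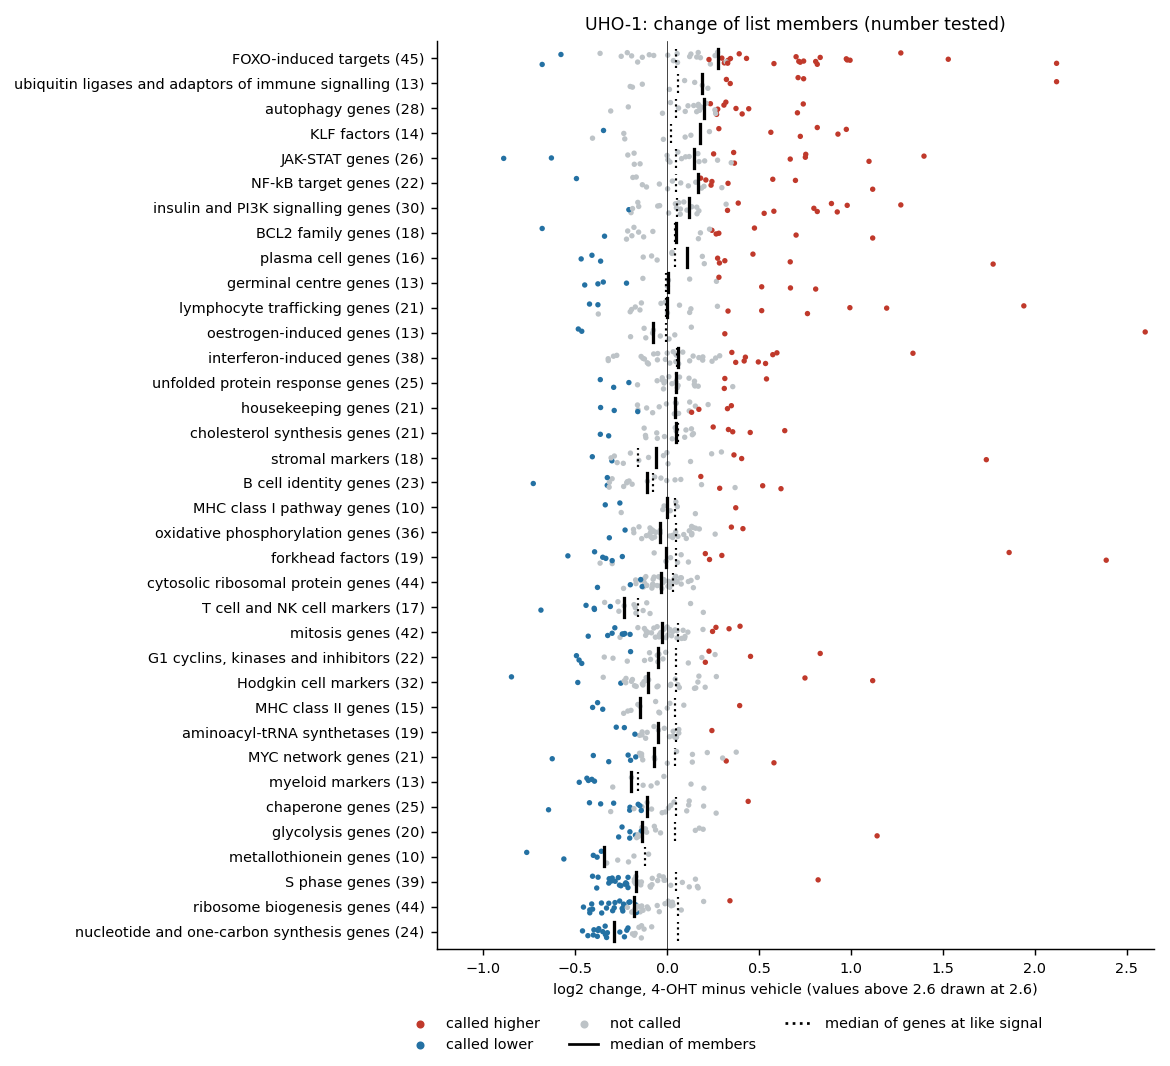
Log2 change in UHO-1, 4-OHT minus vehicle (horizontal axis), of each tested member of 36 gene lists (rows, number tested in brackets), red for called higher, blue for called lower and grey for not called; values above 2.6 are drawn at 2.6. Black bars give the median of the members and dotted bars the median of genes of like signal. The median of the FOXO-induced targets lies furthest to the right, at 0.27, and that of the metallothionein genes furthest to the left, at -0.34.

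Survival, cytokine and NF-kB genes, on which Hodgkin cells are known to depend, rose in part. Of all tested genes 13.4% were higher and 11.1% lower. BCL2A1, an NF-kB-induced survival protein, read 9.37 and 9.38 with 4-OHT, against 8.21 and 8.30 with vehicle, 2.17-fold. BCL2L11, the death protein BIM and a classical FOXO target, read 8.43 and 8.51 with 4-OHT, against 7.75 and 7.79 with vehicle, 1.63-fold. MCL1, another survival protein, rose by 0.475. Members of both signs of the BCL2 family therefore rose together. The death proteins BAX and BBC3 fell by 0.34 and 0.68. In all, 6 of 18 family members were higher and 2 lower (3 to 6 higher without 1 array, the fewest without vehicle replicate 2).

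PTPN1, a phosphatase that switches off JAK kinases, read 8.51 and 8.499 with 4-OHT, against 7.27 and 6.95 with vehicle, 2.63-fold. IL13RA1, a chain of the IL-13 receptor, read 11.15 and 11.07 with 4-OHT, against 10.12 and 9.90 with vehicle. JAK2 rose by 0.75, PIM1, a kinase induced by STAT5, by 0.75, and JAK1 by 0.36. An inhibitor and carriers of the pathway rose side by side here too. SOCS1, the feedback inhibitor of JAK kinases, fell by 0.63 at a mean signal of 6.48, also after loess, and IL2RB by 0.89. Of 26 JAK-STAT genes 8 were higher and 2 lower (7 to 9 higher without 1 array). Of 22 NF-kB target genes 8 were higher and 1 lower, but 5 higher after loess and 4 to 7 without 1 array, the fewest without vehicle replicate 2. CD83, an activation marker of B and dendritic cells, read 11.68 and 11.71 with 4-OHT, against 11.05 and 10.95 with vehicle, and IRF1 rose by 0.57. CCND2, a G1 cyclin, was the member that fell (-0.49). The JAK-STAT and NF-kB counts stand beside 13.4% higher and 11.1% lower among all tested genes. Of the 32 Hodgkin cell markers MAOA, a monoamine oxidase, rose by 0.75 beside BCL2A1, and CCL5, a chemokine, and FUT4, the enzyme that makes CD15, fell by 0.49 and 0.25 beside TNFRSF8. The call of FUT4 was lost without any 1 of the arrays. After loess 5 were lower. The other 27 did not pass, among them CCL17 (0.018), CD274 (0.21) and LTA (-0.18).

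Some genes of cell positioning rose, 6 of 21 tested, beside 13.4% higher and 11.1% lower among all tested genes. RGS1, which restrains signalling by chemokine receptors, read 10.62 and 10.56 with 4-OHT, against 8.85 and 8.45 with vehicle, 3.84-fold. CXCR4, the receptor that holds B cells in the dark zone of the germinal centre and in bone marrow, read 9.61 and 9.825 with 4-OHT, against 8.51 and 8.54 with vehicle, 2.29-fold. RGS2, a relative of RGS1, read 9.89 and 10.19 with 4-OHT, against 9.01 and 9.09 with vehicle. These genes were named for their small p-values, and their arms did not overlap, as in 70.6% of all tested genes. PTK2B, a kinase of chemokine and integrin signalling, rose by 0.76, and CCR7, a lymph node homing receptor among the brightest genes, by 0.33. ITGB7, a gut homing integrin, fell by 0.42. Of the 21 trafficking genes 2 were lower and 13 not called, with a median of 0.0018 (falls 0 to 1 without 1 array, the fewest without vehicle replicate 1). S1PR1 (0.12), ITGA4 (-0.011) and GPR183 (-0.15), which also guide lymphocytes, did not pass.

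Among lists of growth and division, falls were frequent in nucleotide and one-carbon synthesis, ribosome biogenesis and S phase genes, beside 11.1% of all tested genes. In nucleotide and one-carbon synthesis, 16 of 24 tested members were lower and 0 higher, with a median of -0.29 beside 0.06 at like signal. MTHFD1, a folate enzyme, read 9.19 and 9.22 with 4-OHT, against 9.72 and 9.62 with vehicle. IMPDH2, which makes guanine nucleotides, read 10.35 and 10.37 with 4-OHT, against 10.71 and 10.68 with vehicle. PHGDH, the first enzyme of serine synthesis, fell by 0.40 and CAD, which starts pyrimidine synthesis, by 0.40. Each of these changes was under 0.5 log2 units, and the count was 9 to 15 without 1 array, the fewest without vehicle replicate 1, and 19 after loess. Of 39 S phase genes 16 were lower and 1 higher (median -0.17, 9 to 14 lower without 1 array, the fewest without vehicle replicate 1). TYMS, thymidylate synthase, fell by 0.38 and MCM3 and MCM10, of the replication machinery, by 0.30 each. MCM6, of the same helicase as MCM3, was the member that rose and read 10.47 and 10.58 with 4-OHT, against 9.685 and 9.73 with vehicle. Among 42 mitosis genes 8 were lower and 4 higher. CDC20, which starts anaphase, fell by 0.43, and HMMR, a spindle protein, rose by 0.40. Falls numbered 4 to 6 without 1 array, the fewest without 4-OHT replicate 1, and rises 1 to 3 without 1 array, the fewest without vehicle replicate 2.

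Of 22 G1 genes 4 were higher and 4 lower, beside 13.4% and 11.1% of all tested genes. Rises numbered 2 to 3 without 1 array, the fewest without vehicle replicate 1, and falls 2 to 4 without 1 array, the fewest without vehicle replicate 2. After loess 2 were higher. CDKN1B and CDK6, a G1 kinase (0.45), rose, and CCND2, CDKN2D (-0.48) and CDK4 (-0.20) fell. CCND2 read 11.44 and 11.30 with 4-OHT, against 11.89 and 11.83 with vehicle. MYC, the growth regulator, read 10.79 and 10.53 with 4-OHT, against 10.97 and 10.77 with vehicle and changed by -0.21 ± 0.076 (adjusted p = 0.0468). That call was lost in 6 of 16 alternatives (adjusted p up to 0.514), 2 of them without vehicle replicate 1 and without 4-OHT replicate 2. MXI1, an antagonist of MYC and a FOXO target, rose by 0.58, and TFAP4, a MYC-induced factor, and ODC1, ornithine decarboxylase, fell by 0.62 and 0.32. Of 21 MYC network genes 2 were higher and 6 lower (falls 3 to 5 without 1 array, the fewest without vehicle replicate 1). Ribosome biogenesis genes were lower in 21 of 44 cases and higher in 1 (median -0.18, 10 to 17 lower without 1 array, the fewest without vehicle replicate 1). DKC1, of the RNA-modifying box H/ACA particles, fell by 0.45 and UBTF, a factor of RNA polymerase I, by 0.42, while NOP58, a core protein of box C/D particles, rose by 0.34. Cytosolic ribosomal protein genes were lower in 4 and higher in 0 of 44, and aminoacyl-tRNA synthetases in 3 and 1 of 19, shares of falls near that of all tested genes. After loess 9 and 6 were lower. Every one of these 4 ribosomal protein calls, and those of VARS1, IARS1 and FARSA, was lost without at least 1 array.

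Histone genes, a list drawn up after H4C14 and H1-5 were seen among the falls, were lower in 27 of 58 tested cases and higher in 3. The shares of all tested genes were 11.1% and 13.4%. The histone median was -0.26, beside 0.044 at like signal. Histone genes package newly made DNA, and their copies are so alike that probe sets may share signal. H1-5, a linker histone, read 10.40 and 9.97 with 4-OHT, against 11.26 and 10.90 with vehicle. H2AC21, a core histone, read 10.44 and 10.23 with 4-OHT, against 11.04 and 10.82 with vehicle. H4C13 read 7.31 and 6.93 with 4-OHT, against 8.12 and 7.48 with vehicle, and its vehicle arrays lay almost as far apart as its arms. Arrays of an arm thus differed among themselves in several histones, although the arms did not overlap in these 3, as in 70.6% of all tested genes. H1-2 (0.42), H2BC12 (0.60) and H2AC14 (0.97) were the members that rose. Without 1 array 11 to 23 were lower, the fewest without vehicle replicate 1, and 24 after loess.

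Metabolic and stress lists held calls in both directions, beside 13.4% higher and 11.1% lower among all tested genes. The oxidative phosphorylation list lay below both shares, with 5.56% higher and 5.56% lower. PDK1, a kinase that inhibits pyruvate dehydrogenase, read 9.98 and 10.16 with 4-OHT, against 9.065 and 8.79 with vehicle, 2.21-fold. Of 20 glycolysis genes 6 fell and 1 rose, and after loess 9 were lower and 2 higher. The count of falls moved when single arrays were left out, and was lowest without vehicle replicate 1. PKM, GPI, ENO1 and the glucose transporter SLC2A1 fell by 0.25, 0.26, 0.17 and 0.20. The calls of the last 3 were lost without at least 1 array. Oxidative phosphorylation genes were higher in 2 and lower in 2 of 36, with 4 lower after loess, and without vehicle replicate 1 SDHA was the 1 member called. Autophagy genes were higher in 11 of 28 and lower in 0, with 8 higher after loess and 4 to 9 without 1 array, the fewest without 4-OHT replicate 2. OPTN, a receptor for cargo, read 8.105 and 8.07 with 4-OHT, against 7.33 and 7.425 with vehicle, and ULK2, a kinase that starts autophagy, rose by 0.74. GABARAPL1, a coat protein of autophagosomes and a known FOXO target, rose by 0.41 but was not called after loess, and ULK1 (0.16) and MAP1LC3B (0.21) did not pass. Of 38 interferon-induced genes 9 were higher and 0 lower, but 3 to 8 higher without 1 array, the fewest without vehicle replicate 1, and 0 to 4 lower. GBP2, an interferon-induced GTPase, read 8.61 and 8.715 with 4-OHT, against 7.25 and 7.40 with vehicle, 2.53-fold. The classical members ISG15 (-0.14), MX1 (-0.051) and IFIT1 (-0.32) did not pass.

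Of 25 chaperones 9 were lower and 1 higher (falls 4 to 6 without 1 array, the fewest without vehicle replicate 1). HSPA4L and HSPD1, of cytosol and mitochondria, fell by 0.64 and 0.36, and DNAJA1 rose by 0.44. Unfolded protein response genes were higher in 3 and lower in 3 of 25, with falls at 1 to 2 without 1 array, the fewest without 4-OHT replicate 1. DNAJC3, an inhibitor of the kinase PERK, rose by 0.54, and PDIA6, a disulfide isomerase, fell by 0.36. The shares of this list, 12% higher and 12% lower, lay near the 13.4% and 11.1% of all tested genes. Of 21 cholesterol synthesis genes 5 were higher and 2 lower (1 to 3 higher without 1 array, the fewest without 4-OHT replicate 2, and 3 after loess). SC5D, a late enzyme of the pathway, rose by 0.64. Among 21 housekeeping genes 4 were higher (19.05%) and 3 lower (14.29%), with a median of 0.045, and 2 higher and 5 lower after loess. Without 1 array 2 to 3 were higher and 2 to 3 lower. SDHA (0.35) and TFRC (-0.36) had the smallest p-values among them, so changes of this size also occurred in genes often taken as constant.

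Oestrogen-induced genes were examined because 4-OHT also binds oestrogen receptors. Of 13 tested, PRL and XBP1 were higher and TFF1 (-0.48) and CCND1 (-0.46) lower. These shares, 15.4% each, lay near the 13.4% and 11.1% of all tested genes. TFF1 was dim, at 5.77 and 5.88 with 4-OHT, against 6.29 and 6.325 with vehicle, and was not called after loess. Neither fall was called without vehicle replicate 2. PRL is also a marker of decidual stroma, in which FOXO1 is known to drive it, and a list of such genes was drawn up after PRL was seen. Among 15 of them PRL, IL15 (1.23 ± 0.13), CEBPB (0.78 ± 0.079), BMP2 (0.36 ± 0.13) and DCN (0.36 ± 0.11) were higher, and IGFBP1 (-0.47 ± 0.12), IL11 (-0.34 ± 0.11) and FOXO1 lower. The list had a median of -0.10, beside -0.16 at like signal. IL11 was not called after loess, and rises numbered 3 to 5 without 1 array, the fewest without vehicle replicate 1, and falls 0 to 2 without 1 array, the fewest without vehicle replicate 2. IL15, a cytokine of NK and memory T cells, read 6.83 and 6.86 with 4-OHT, against 5.63 and 5.595 with vehicle. IGFBP1, the other classical decidual marker, read 6.60 and 6.58 with 4-OHT, against 6.97 and 7.15 with vehicle, so it fell while PRL rose, and it was still lower after loess.

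In lists made mostly of dim genes fewer falls were called after loess. Among all tested genes 11.1% were lower as deposited and 8.29% after loess. The shares of rises were 13.4% and 12.3%. Of 10 metallothioneins, metal-binding proteins whose copies may share probe signal, 5 were lower as deposited and 2 after loess (median as deposited -0.34, -0.12 at like signal), and falls numbered 2 to 4 without 1 array, the fewest without vehicle replicate 2. MT2A, the bright member, read 10.70 and 10.68 with 4-OHT, against 11.20 and 11.31 with vehicle and MT1G 6.59 and 6.50 with 4-OHT, against 7.21 and 7.41 with vehicle, and both were still lower after loess. T cell and NK cell markers were lower in 5 of 17 (median -0.23, -0.16 at like signal) and in 2 after loess, CD7 and PRF1. Falls among them numbered 2 to 4 without 1 array, the fewest without vehicle replicate 2. Myeloid markers were lower in 5 of 13 and in 1 after loess, ELANE (median as deposited -0.19, -0.16 at like signal), and falls numbered 0 to 2 without 1 array, the fewest without 4-OHT replicate 1. Stromal markers were higher in 3 of 18 and lower in 2, and lower in 0 after loess (median as deposited -0.06, -0.16 at like signal). Their share of rises, 16.7%, lay near the 13.4% of all tested genes. FN1, the matrix protein fibronectin, read 6.92 and 7.07 with 4-OHT, against 5.26 and 5.26 with vehicle, 3.33-fold, while PDGFRA (0.41) and DCN (0.36) rose less. Without vehicle replicate 1 FN1 was the 1 stromal rise. In such bulk RNA a change in the number of cells of a type and in the RNA of each cell cannot be told apart. The summed signal of the stromal list was 7879 and 7687 with 4-OHT, against 7500 and 7456 with vehicle, and 6 of its 18 members had a mean signal of at least 7. Of the fibroblast markers, mean signals were 7.38 for COL1A1, 6.18 for COL1A2, 6.08 for COL3A1 and 10.06 for PDGFRA. A part of other cells in the rise of FN1 was not tested. In a list of 32 matrix and adhesion genes drawn up after THBS1 and ABI3BP were seen, 6 were higher and 6 lower, and 6 and 0 after loess (median as deposited -0.12, -0.16 at like signal), and falls numbered 0 to 2 without 1 array, the fewest without vehicle replicate 2. The matrix and adhesion list thus had 18.75% higher and 18.75% lower as deposited, beside 13.4% and 11.1% of all tested genes. ITGAV, an integrin chain that binds fibronectin, read 9.12 and 9.24 with 4-OHT, against 8.295 and 8.295 with vehicle.

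Further calls on genes named above rested on single arrays. Without vehicle replicate 2 those of FKBP11, HLA-DOA, HLA-DMB, NLRC5, ERAP2, CDKN2D, HMMR, IARS1, CCND1, PDGFRA and DCN were lost. Without vehicle replicate 1 those of HLA-DMB, ERAP2, CDK4, VARS1, GPI, ENO1, SLC2A1, ELANE, PDGFRA, DCN and ITGB7 were lost. Without 4-OHT replicate 1 it was those of FKBP11, PSMB9, ERAP2, CDKN2D, MCM3, IARS1, CCND1, ELANE and PDGFRA, and without 4-OHT replicate 2 those of HLA-DOA, HLA-DMB, ERAP2, CDK4, FARSA, VARS1, IARS1, GPI, SLC2A1, PDGFRA, DCN and ITGB7. Single arrays were left out for the genes named by rule, and not for other list members.

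The response of UHO-1 was set against the mean response of L1236 and SUP-HD1. By their values the arrays of these lines appear to have been normalised with it, and they share no control arrays with it. In this test of the difference itself 2422 genes (15.3%) passed, 1584 (9.99%) with a higher change in UHO-1 and 838 (5.29%) with a lower one. L1236 weighed heavily: 4081 genes passed against L1236 alone and 641 against SUP-HD1 alone. The change of PRL was 5.09 in UHO-1, against 0.59 in SUP-HD1 and 0.48 in L1236, a difference of 4.55 ± 0.16 (SE, adjusted p = 1.1e-14). That of P2RY14 was 4.435, against 0.12 and 0.11, and that of THBS1 2.92, against -0.053 and -0.32. These genes were strongly induced in UHO-1 and hardly in the lines set against it. EDIL3, ANO2, ABI3BP and C3orf70 rose by 2.21 to 2.48 in UHO-1, with differences of -0.11 to 0.22 in the 4 other lines, of which none passed. PLAAT4 and PRRX1 differed from L1236 and SUP-HD1 by 3.01 and 2.30. However, PLAAT4 rose by 3.29 in L428, by 1.915 in KM-H2 and by 0.65 in SUP-HD1, and stood at -0.41 in L1236. P2RY14 and PRRX1 rose by 1.34 and 1.82 in KM-H2. Smaller rises were called for THBS1 (0.77) and PRRX1 (0.43) in L428 and for RANBP3L (0.46) in KM-H2. The arrays of L428 and KM-H2 appear to have been normalised separately. CD38 (1.77, against 0.087 in SUP-HD1 and 0.93 in L1236) and BCL6 (0.81, against 0.45 and -0.66) also rose more in UHO-1, with differences of 1.27 ± 0.19 and 0.91 ± 0.087. BCL2L11 differed by 0.39 ± 0.12 (adjusted p = 0.0362), a call lost in 9 of 12 alternatives, among them each fit without 1 array.

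**Figure D5:**
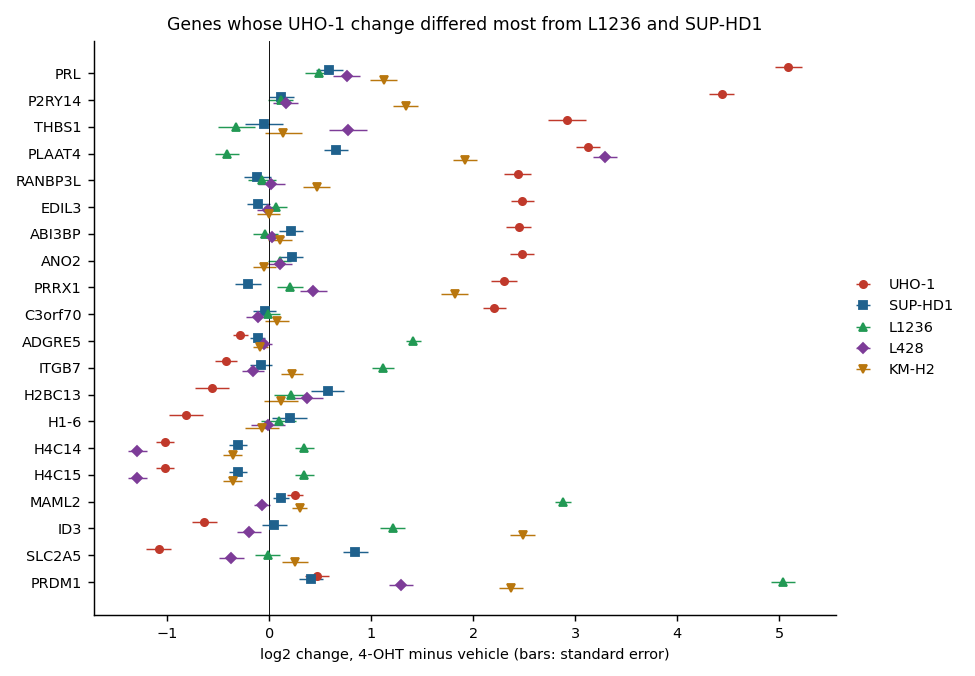
Log2 change with 4-OHT in each line (horizontal axis) of 20 genes (rows). These are the genes whose change in UHO-1 differed most from the mean change of L1236 and SUP-HD1. Bars give the standard error from the spread pooled over all lines, which is the same in every line for a given gene. UHO-1 (red circles) lies far to the right for PRL, at 5.09, and L1236 (green triangles) for PRDM1, at 5.04.

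Other genes had a lower change in UHO-1 than the mean of L1236 and SUP-HD1. PRDM1 changed by 0.47 in UHO-1, against 0.41 in SUP-HD1 and 5.04 in L1236, a difference of -2.255 ± 0.15 (adjusted p = 3.59e-10). Against SUP-HD1 alone the difference was 0.059 and did not pass. MAML2, a coactivator of Notch, rose by 2.88 in L1236 and by 0.25 in UHO-1 (not called after loess), and against SUP-HD1 alone the difference was 0.14 and did not pass. ITGB7 (-0.94) and ADGRE5, an adhesion receptor (-0.94), likewise did not pass against SUP-HD1 alone. Without L1236 these 4 differences were thus not called. The UHO-1 calls of MAML2, ADGRE5 and the histone gene H2BC13 were each lost without at least 1 array. SLC2A5 fell in UHO-1, against log2 differences of 0.84 in SUP-HD1 and -0.014 in L1236. ID3, a relative of ID1, fell by 0.64 in UHO-1, against 0.051 and 1.21 there. TNFRSF8 fell by 0.85 in UHO-1, against differences of 0.027 in SUP-HD1 and -0.20 in L1236. That difference, -0.76 ± 0.11 (adjusted p = 6.21e-05), was not called against the mean of the other 4 lines, and TNFRSF8 stood at -1.45 in L428 and -1.38 in KM-H2. MYC had a higher change in UHO-1: it stood at -0.21 in UHO-1, against -0.43 in SUP-HD1 and -1.37 in L1236, and was not called against SUP-HD1 alone. Of the 58 histone genes 24 had a lower change in UHO-1 than the mean of L1236 and SUP-HD1 and 0 a higher one. Among all tested genes 5.29% had a lower change and 9.99% a higher one. Histone medians were -0.26 in UHO-1, -0.056 in SUP-HD1 and 0.24 in L1236. Ribosome biogenesis genes had a higher change in UHO-1 than the mean of L1236 and SUP-HD1 in 18 of 44 cases and a lower one in 1. Their medians were -0.18 in UHO-1, -0.19 in SUP-HD1 and -0.66 in L1236, so UHO-1 lay near SUP-HD1 and apart from L1236.

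Of the 143 genes up by at least 1 log2 unit in UHO-1, 65 were also called higher in SUP-HD1, 26 in L1236, 96 in L428 and 52 in KM-H2. The shares of all tested genes called higher there were 3.68%, 8.25%, 12% and 10.0%. Called lower there were 1, 12, 4 and 12 of the 143, beside 2.35%, 14.9%, 17.5% and 12.3% of all tested genes. The genes called higher in each of the 4 other lines numbered 11: PRL, FOXP1, CBLB, RGS1, DEPP1, PIK3IP1, SLC44A2, SHOX2, RIPOR2, FERMT2 and CASZ1, named for this count after their values were seen. In all, 30 of the 143 were called higher in none of the others, among them EDIL3, ANO2, ABI3BP, C3orf70, CBR1, SYCP2 and CLDN1 of the 20 largest. PRL reached a rise of 1.12 in KM-H2, 0.76 in L428, 0.59 in SUP-HD1 and 0.48 in L1236.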

How the data were processed

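RNA of UHO-1 cells with FOXO1(3A)ER was measured after 24 h with 4-OHT or vehicle, 2 arrays an arm, within a series of 20 arrays, and samples were grouped by their titles. Per the labels' protocols, the RNA was run on Human Gene 1.0 ST arrays of Affymetrix. The authors deposited log2 values from the robust multichip average (RMA), per the labels and the series' design text. RMA corrects background, forces the arrays of a run to 1 distribution and sums up the probes of a probe set, so it can alter small shifts at low signal. The UHO-1 arrays appear to have been normalised with those of L1236 and SUP-HD1, which is inferred from the values. Sorted values differed by at most 0.204 among these 12 arrays, and by at least 0.712 at some rank from arrays of KM-H2 and L428. Arrays have no read depth, and precision is limited by their number.

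Among 33268 probe sets, 19457 had 1 gene symbol in the platform annotation, 1751 several and 12060 none listed. The RefSeq table of GRCh38.p14 held the Entrez numbers of 19426 and changed 0 symbols. Of 767 genes with several probe sets the brightest was used. Genes with a value of at least 5 in at least 2 arrays were tested, 15850 of 18416. limma 3.58.1 in R 4.3.3 fitted 10 group means to 20 arrays (eBayes with an intensity trend, 10 residual and 11.8 prior degrees of freedom). Benjamini-Hochberg adjustment ran over all tested genes, and a call is an adjusted p below 0.05. The script was tested on simulated data. Named genes were 12 taken always, the 20 largest rises and falls among calls whose arms did not overlap and whose brighter arm reached 7, up to 5 members of each list by p, and the 20 most different from L1236 and SUP-HD1. Other named genes were chosen after their values were seen. The members, the 36 lists and the tests were chosen with earlier results of these data known. Histone, decidual and matrix lists were added after values were seen. Alternatives changed the arrays fitted, the floor, the scaling, the variance model, the probe set rule and the replicate block, and left out each array. Promoter windows are those of RefSeq.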

Additional observations from a re-analysis of the deposited data

Results flagged for a closer look

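Each result here is a change in UHO-1 that differed, by limma's test of the difference itself, from the mean change of L1236 and SUP-HD1. Values are log2 differences, UHO-1 minus the mean of the others, and were picked as the 20 most different genes and those of the 12 genes always reported that passed. The change was higher in UHO-1 for PRL (4.55), P2RY14 (4.32), THBS1 (3.105), PLAAT4 (3.01), RANBP3L (2.53), EDIL3 (2.505), ABI3BP (2.36), ANO2 (2.32), PRRX1 (2.30) and C3orf70 (2.24). Among the genes always reported it was higher for CD38 (1.27), BCL6 (0.91), MYC (0.69) and BCL2L11 (0.39). BCL2L11 was not called in 9 of 12 alternatives. It was lower in UHO-1 for PRDM1 (-2.255), SLC2A5 (-1.50), ID3 (-1.27), MAML2 (-1.24), H4C14 (-1.04), H4C15 (-1.04), H1-6 (-0.96), H2BC13 (-0.95), ITGB7 (-0.94), ADGRE5 (-0.94), TNFRSF8 (-0.76) and FOXO1 (-0.30). FOXO1 was not called in 7 of 12 alternatives, each fit without 1 array among them. PRDM1, MAML2, ITGB7, ADGRE5 and MYC were not called against SUP-HD1 alone, nor TNFRSF8 against the mean of the other 4 lines. The first 10 genes listed as higher kept their calls in the 12 alternatives run for them. So did SLC2A5, ID3, BCL6, CD38 and the 4 histone genes.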

How the results depend on the processing

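Without 1 UHO-1 array in turn, 1157 to 1514 genes were higher and 680 to 814 lower, and the difference from L1236 and SUP-HD1 was called for 1160 to 1757, fewer arrays being the only change. Requiring at least 0.5 log2 units left 704 higher and 225 lower. Of genes with a mean of at least 7, 1055 were lower, and of those with at least 8, 728, fewer genes being tested. Against L1236 alone 4081 genes differed and against SUP-HD1 alone 641. The other counts stayed within 1.5 times. Scaling moved the median change of all genes by less than 0.1: it was -0.035 as deposited, -0.069 after median centring, -0.036 after quantile normalisation and -0.0065 after loess. The replicate block gave 1916 higher, 1399 lower and 2039 differing. Same-numbered UHO-1 arrays deviated together with a correlation of 0.294, but nothing says that the numbers pair cultures. Of 198 called named genes 128 kept their call under every alternative, 70 lost it in at least 1 and 0 reversed, while 6 uncalled genes passed in at least 1. Alternatives for single differences were added after the data were seen. Against SUP-HD1 alone those of PRDM1 (0.059), MAML2 (0.14) and FOXO1 (0.0068) reversed in sign and did not pass. List medians moved by more than the spread between array pairs in 133 of 324 checks. Low signal also limits the falls: 125 of 773 lower calls below 7 were lower after loess.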

Other observations

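Beside the lists, the 143 genes up by at least 1 log2 unit in UHO-1 held further groups, named here after their values were seen and with no test of the groups. Developmental and immune transcription factors were among them: SMAD9 rose by 1.83 ± 0.11 log2 units (means 9.36 with 4-OHT and 7.53 with vehicle), TWIST1, a mesenchymal factor, by 1.72 ± 0.1 (means 9.73 with 4-OHT and 8.02 with vehicle), IKZF2, the lymphoid factor Helios, by 1.61 ± 0.11, RORA, a nuclear receptor, by 1.60 ± 0.17, and EBF3, a relative of the B cell factor EBF1, by 1.39 ± 0.11 (means 6.72 with 4-OHT and 5.33 with vehicle). EBF3 is thus a dim gene. Receptors included CYSLTR2, a leukotriene receptor (1.87 ± 0.16), P2RX7, an ATP-gated channel (1.605 ± 0.13), and TLR1 (1.37 ± 0.13) and TLR3 (1.305 ± 0.18), which sense microbial molecules. Another was IL5RA, the IL-5 receptor chain (1.34 ± 0.11, means 10.84 with 4-OHT and 9.50 with vehicle).

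GCLC, the enzyme that sets the rate of glutathione synthesis, rose by 1.58 ± 0.082 (means 10.60 with 4-OHT and 9.02 with vehicle), and CAV1, the coat protein of caveolae, by 1.43 ± 0.093 (means 10.89 with 4-OHT and 9.46 with vehicle). DUSP6 (1.415 ± 0.14) and DUSP4 (1.12 ± 0.12), phosphatases that switch off MAP kinases, rose together, and ATM, the DNA damage kinase, rose by 1.18 ± 0.10. PLPP3, a lipid phosphatase, rose by 1.755 ± 0.072 and ENPP2, the lysophospholipase autotaxin, by 1.74 ± 0.13.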
